A study of Danio rerio with 4 samples.

Results

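The sites described here are the stretches of acetylated chromatin on the long arm of zebrafish chromosome 4. Peaks of 4 lists were merged wherever they shared at least 1 bp, which gave 51678 sites in all, and every merged site of chromosome 4 that started at or beyond 30 Mb (GRCz11) was taken, whichever list had called it. This gave 1897 sites, beside 1117 on chromosome 4 below 30 Mb, 42926 on chromosomes 1 to 3 and 5 to 25, and 5738 on unplaced or alternative sequence. No site lay across the 30 Mb line. The last site below it ended at 29968047 and the first site beyond it started at 30088245.

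The lists came from CUT&Tag for H3K27ac (acetylation of lysine 27 of histone H3) in nonmyocyte cells (nonCMs) isolated from the injury area of adult hearts at 7 days post amputation (dpa). Each group, *Epi/FB:dnAP-1* and control, had 2 libraries, which the study describes as biological duplicates, and 1 list was made for each library. *Epi/FB:dnAP-1* fish carried *TgBAC(tcf21:Cre-ERT2)* and a *ubb* transgene with a loxP-flanked dsRed ahead of Flag-dnAP-1. They received 4-hydroxytamoxifen before the ventricular apex was resected, so that a dominant negative AP-1 was switched on in *tcf21*-expressing epicardial cells and fibroblasts. Per the study's methods the controls were fish with both transgenes that received the ethanol vehicle, whereas the labels call them control or wild type only. The libraries held all nonCMs of the injury area, of which the transgene was active in 1 lineage, so fewer cells of a type and less signal per cell cannot be told apart. The age of the fish beyond adult, their sex and the number pooled per library were not given in the sources used here. The identity of the cells was not checked against marker genes, because no GRCz11 annotation was used here.

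H3K27ac is laid down on nucleosomes at active promoters and enhancers, where it usually forms sharp peaks, and it is low in heterochromatin. The long arm of zebrafish chromosome 4 is known as a largely heterochromatic, late replicating arm. It is rich in repeats, 5S ribosomal RNA and small nuclear RNA genes and large families of NLR immune receptor and zinc finger genes, and in wild strains it carries the main sex-determining region.

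Counting sites called in any list, the long arm held many H3K27ac sites, and they were wide and low. It had 39.5 sites per Mb, against 37.2 on chromosome 4 below 30 Mb and 33.9 on the other chromosomes. Sites called in all 4 lists made up 23.5% of the arm's sites and 34.7% of those on the other chromosomes. They numbered 445 on the 48.0 Mb of the arm and 385 on the 30 Mb below it, so these were sparser on the arm. With chromosome 4 split at 30 Mb there were 26 units to compare. In density of sites called in any list the long arm ranked 1, the next being chromosome 19 with 38.8. The median site was 3819 bp wide (819 to 58147 bp), against 3598 bp below 30 Mb and 3443 bp on the other chromosomes, which again placed the arm at rank 1 of 26. Sites wider than 10 kb numbered 95 (5.01%), against 5.10% below 30 Mb and 3.69% elsewhere. Merged sites took up 18.5% of the arm and 14.1% of the other chromosomes. These lengths run to the last site on each chromosome, since chromosome lengths were not in the lists, and the arm used was 48.0 Mb long.

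In the deposited lists the number of peaks on the arm separated the groups. There were 1263 and 1403 peaks there in controls, and 1043 and 748 after dnAP-1 was switched on. The groups did not overlap, and the controls had more. This separation depended on where each list stops and on its scaling, as given below with the thresholds. The means were 1333 ± 99.0 in controls and 895.5 ± 209 in *Epi/FB:dnAP-1* hearts (SD, n = 2 each), a ratio of 1.49. An exact two-sided permutation test of 2 libraries against 2 gave p = 0.33, the smallest this test can give with 2 libraries a group, so it cannot reach 0.05 here for any difference between the groups. Over the same libraries chromosome 4 below 30 Mb had a mean of 762.5 ± 9.19 peaks in controls and 770 ± 73.5 in *Epi/FB:dnAP-1* hearts. The other chromosomes together had 27590 ± 242 and 30004.5 ± 3262 peaks (ratio 0.920, exact permutation p = 0.667).

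Set against the rest of its own library, the arm was denser in peaks in both controls and sparser in both *Epi/FB:dnAP-1* libraries. Peaks per Mb on the arm were 26.3 and 29.2 in controls and 21.7 and 15.6 with dnAP-1. Elsewhere, on chromosomes 1 to 3 and 5 to 25, the same libraries had 21.9, 21.6, 25.5 and 21.9 peaks per Mb. The arm therefore had the highest peak density of the 26 units in both control lists and the lowest in both *Epi/FB:dnAP-1* lists. On the log2 scale the arm-to-other ratio was 0.26 and 0.43 in controls and -0.23 and -0.49 in *Epi/FB:dnAP-1* libraries. Over the 4 libraries its mean was -0.01 ± 0.43 (SD, n = 4, exact permutation by sign flips p = 1), and the control mean exceeded the *Epi/FB:dnAP-1* mean by 0.71 (exact permutation p = 0.33).

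The share of the arm that lay under peaks followed the same order. It was 11.6% and 10.9% in controls and 7.81% and 6.34% with dnAP-1. The groups did not overlap, with means of 11.2 ± 0.535% and 7.08 ± 1.04% (SD, n = 2 each, exact permutation p = 0.33). Like the number of peaks, this share depends on where each list stops and on its scaling. It was not recomputed with 1 threshold for all lists. Covered shares on the other chromosomes were 7.97%, 6.66%, 7.07% and 7.72% in the deposited lists, and there the groups overlapped. The arm exceeded the other chromosomes by 3.64 and 4.19 percentage points in controls and by 0.74 points in *Epi/FB:dnAP-1* replicate 1. In *Epi/FB:dnAP-1* replicate 2 the difference was -1.38 points.

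**Figure D1:**
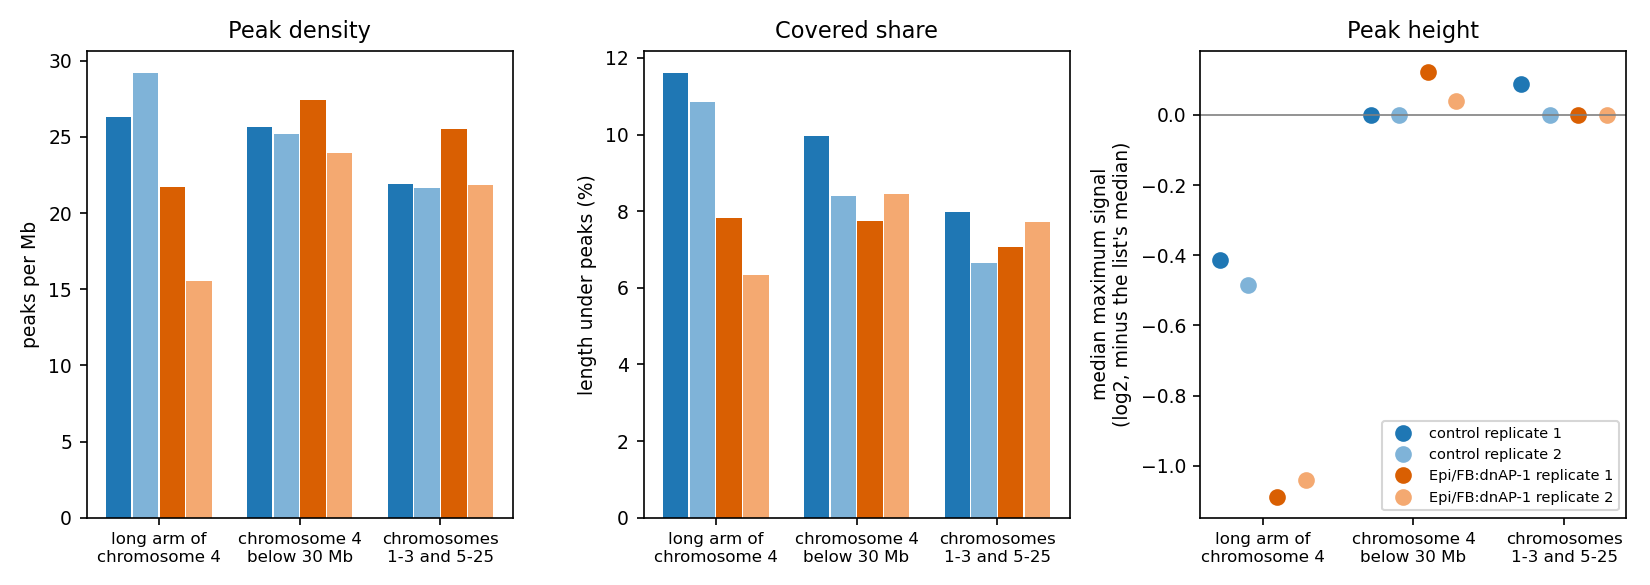
Peaks per Mb, percent of length under peaks, and median log2 maximum signal minus the median of the whole list, for each of the 4 libraries (colours, 1 bar or point per library) in 3 parts of the genome. On the long arm the controls reach 26.3 and 29.2 peaks per Mb against 21.7 and 15.6 in *Epi/FB:dnAP-1* libraries, and all 4 libraries lie below 0 in peak height there, at -0.42 and -0.49 in controls and -1.09 and -1.04 in *Epi/FB:dnAP-1* libraries.

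Single peaks on the arm were wide in every library. Their median width was 3657 and 3013 bp in controls and 2992 and 3577 bp in *Epi/FB:dnAP-1* libraries, and the groups overlapped. Elsewhere it was 3176, 2684, 2342 and 2921 bp, lower than on the arm in 4 of 4 libraries. The log2 ratio averaged 0.25 ± 0.08 (SD, n = 4). The exact sign-flip permutation test gave p = 0.13, the smallest that 4 libraries allow.

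The peaks were low as well as wide. The height of a peak is its maximum signal, the highest value of the scaled coverage inside it. Its median on the arm was 15.1 and 13.8 in controls and 10.9 and 12.2 with dnAP-1, against 21.4, 19.3, 23.1 and 25.2 on the other chromosomes. The arm was lower in 4 of 4 libraries. Because the authors scaled each library by its own factor, heights were compared on the log2 scale after subtracting the median of the whole list. So centred, the median height on the arm was -0.42 and -0.49 in controls and -1.09 and -1.04 in *Epi/FB:dnAP-1* libraries. The arm had the lowest centred height of the 26 units in all 4 lists. The next lowest unit stood at -0.09, -0.11, -0.09 and -0.08, taken in the same order.

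Relative to the other chromosomes the median height on the arm was 0.706 and 0.714 times as high in controls and 0.471 and 0.486 times in *Epi/FB:dnAP-1* libraries. The mean log2 difference was -0.78 ± 0.33 (SD, n = 4, exact permutation by sign flips p = 0.13). The deficit was larger in both *Epi/FB:dnAP-1* libraries than in either control. Between the groups the centred heights on the arm were -0.45 ± 0.05 and -1.06 ± 0.03 (SD, n = 2 each), a difference of 0.61 without overlap (exact permutation p = 0.33). Without centring the heights as deposited kept this order, with means of 14.5 ± 0.933 in controls and 11.6 ± 0.962 in *Epi/FB:dnAP-1* hearts. On chromosome 4 below 30 Mb the deposited heights had the opposite order, at 19.7 ± 0.594 and 25.5 ± 0.481. Deposited heights still carry the authors' scaling, which is removed by dividing by the step in which each list's values rise. In such steps the median on the arm was 12 and 10 in controls and 16 and 18 in *Epi/FB:dnAP-1* libraries, so its order turned. On the other chromosomes it was 17, 14, 34 and 37.

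Total signal, the sum of the scaled coverage over a peak, combines height and width and differed less. Its centred median on the arm was -0.02 and -0.04 in controls and -0.22 and -0.27 in *Epi/FB:dnAP-1* libraries. The arm lay below the other chromosomes by a mean log2 difference of -0.15 ± 0.14 (SD, n = 4, exact permutation by sign flips p = 0.13). The control libraries thus came near the typical total of their list with low, wide peaks. Each list stops at a weakest total signal of its own, so a low peak is listed only if it is wide enough. Low height together with large width, and the smaller difference in total, are therefore not separate traits. How far this limit sets them was not tested. The groups differed by 0.22 on the log2 scale without overlap (exact permutation p = 0.33).

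The shape of the peaks was flat. The ratio of the maximum to the mean signal of a peak had a median on the arm of 2.67 and 2.57 in controls and 2.84 and 2.97 in *Epi/FB:dnAP-1* libraries. On the other chromosomes it was 2.97, 2.80, 3.39 and 3.56, and the arm was the lowest of the 26 units in all 4 lists. Peaks among the highest 10% of their list by maximum made up 2.61% and 2.42% of the arm's peaks in controls and 2.11% and 2.81% in *Epi/FB:dnAP-1* libraries. Elsewhere these shares were 10.8%, 10.4%, 11.1% and 11.1%. Tall peaks were thus scarce on the arm in every library, and in their share the groups overlapped.

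The step in height fell close to the 30 Mb line that defined the sites and held for most of the arm. In windows of 5 Mb below 30 Mb, the centred median height stayed between -0.19 and 0.25 in all 4 lists. From 30 to 70 Mb it lay between -0.68 and -0.35 in the control windows and between -1.40 and -0.92 in the *Epi/FB:dnAP-1* windows, so the groups did not overlap in any of these windows. In windows of 1 Mb the fall began before the line, since between 29 and 30 Mb the centred heights were already -0.68 and -0.64 in controls and -0.84 and -0.60 in *Epi/FB:dnAP-1* libraries. That window held 27 sites, and the groups overlapped in it.

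Height came partly back towards the end of the arm. Beyond 70 Mb the centred median was -0.19 and -0.22 in controls and -0.56 and -0.40 in *Epi/FB:dnAP-1* libraries. From 30 to 70 Mb it had been -0.42 and -0.49 in controls and -1.18 and -1.21 in *Epi/FB:dnAP-1* libraries. The share of peaks in the highest 10% was 7.46%, 6.33%, 5.75% and 7.74% beyond 70 Mb, against 1.69%, 1.69%, 1.10% and 1.38% before it. The number of peaks separated the groups in the first stretch and not in the second. From 30 to 70 Mb the control libraries had 1062 and 1182 peaks and the *Epi/FB:dnAP-1* libraries had 817 and 580. Beyond 70 Mb the counts were 201, 221, 226 and 168, and the groups overlapped. The 70 Mb line was chosen after the windows had been seen.

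**Figure D2:**
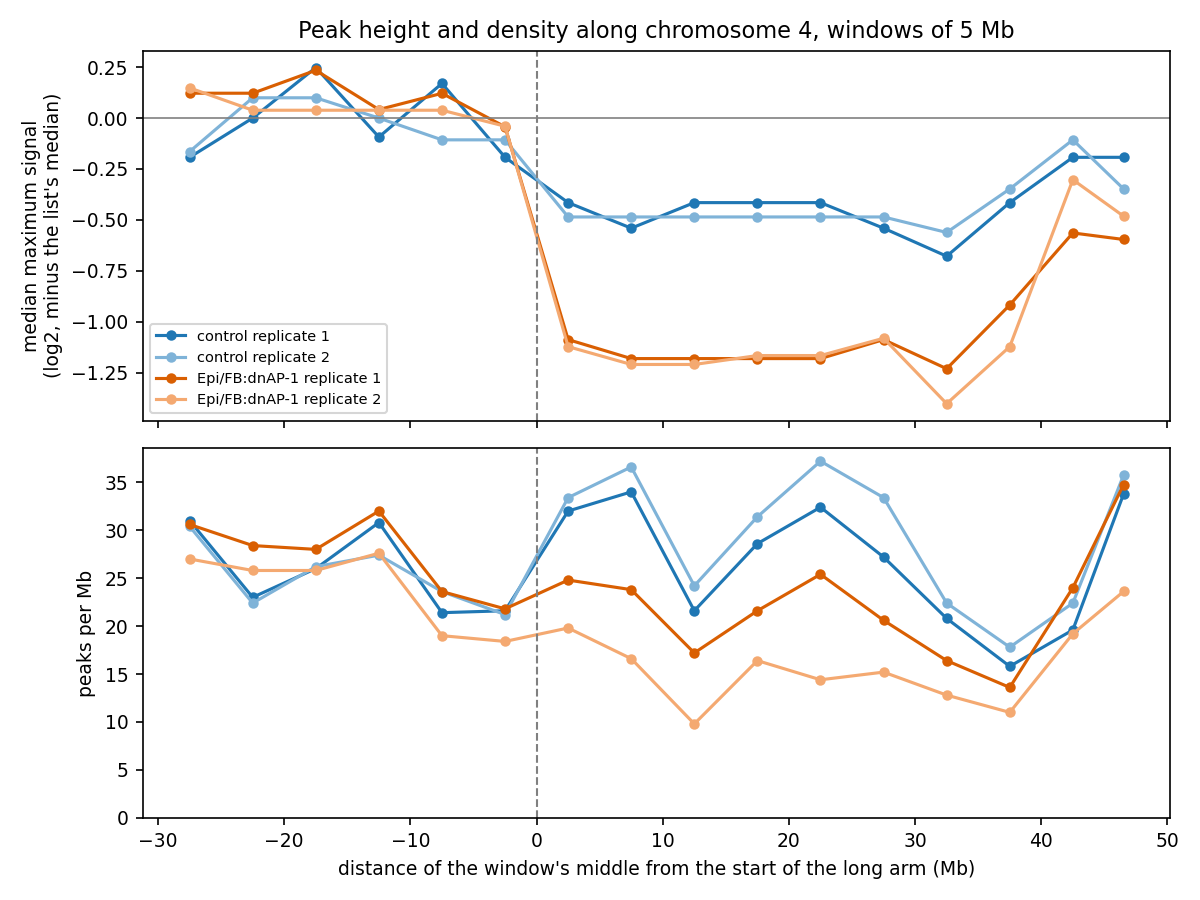
Median log2 maximum signal minus the list's median (top) and peaks per Mb (bottom) in windows of 5 Mb along chromosome 4, against the distance of each window from the start of the long arm (dashed line), for the 4 libraries. Before the line the centred heights stay between -0.19 and 0.25, and in the first 8 windows after it the controls lie between -0.68 and -0.35 and the *Epi/FB:dnAP-1* libraries between -1.40 and -0.92.

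The sites were spread over the whole arm, unevenly. Of the 5 Mb windows, the one from 50 to 55 Mb held the most sites (240) and the one from 65 to 70 Mb the fewest (121). Per Mb the last, shorter window from 75 Mb held the most, 48.2. The median gap between neighbouring sites was 9818 bp, against 8451 bp on the other chromosomes, but long gaps were fewer, with 46 gaps over 100 kb (2.43%) against 5.46%. The longest stretches without a site in any list were chr4:45634009-46446078, chr4:65990997-66528637 and chr4:43781169-44274830, of 812, 538 and 494 kb. The reads, and so whether reads could be placed in these stretches, were not used here.

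The long arm stood apart in which lists called its sites. Control-only sites, called in both control lists and in neither *Epi/FB:dnAP-1* list, numbered 174 (9.17%), against 3.04% of all sites in the series. *Epi/FB:dnAP-1*-only sites, the reverse, numbered 28 (1.48%), against 7.64% of all sites. These shares were 2.76% and 7.25% on the other chromosomes, so the arm had the larger share of the first kind and the smaller share of the second. Both shares were at the edge of the 26 units, with 2.23% to 4.66% and 5.94% to 8.88% in the other 25. The arm held 3.67% of all sites of the series, 11.1% of all control-only sites and 0.709% of those of the *Epi/FB:dnAP-1* lists alone.

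Sites shared by all libraries were fewer on the arm, and sites of a single control library more. In all 4 lists 445 sites (23.5%) were called, against 33.9% of all sites, and this share was the lowest of the 26 units. A further 631 (33.3%) were called in 1 control list alone, against 21% of all sites, and 155 (8.17%) in 1 *Epi/FB:dnAP-1* list alone, against 14%. Control replicate 1 called 1200 of the 1897 sites, control replicate 2 called 1318, *Epi/FB:dnAP-1* replicate 1 called 957 and *Epi/FB:dnAP-1* replicate 2 called 710. Sharing between replicates was thus limited even within a group. Among members that at least 1 control list held, 46.9% were in both (51.8% on the other chromosomes). For the *Epi/FB:dnAP-1* lists this share was 52.7% (67.9% on the other chromosomes). Overlap of 2 lists was also taken by length, as the length under peaks of both over the length under peaks of either. On the arm it was 0.381 between the controls and 0.417 between the *Epi/FB:dnAP-1* lists, and it ran from 0.329 to 0.379 across the groups. On the other chromosomes the values were 0.377, 0.504 and 0.395 to 0.410. The control pair was thus alike in both, while the other overlaps were lower on the arm.

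The counts of sites in 1 group alone depend on where each list stops. Each list held peaks down to a weakest total signal of its own, 12993 and 10480 in the control lists and 7490 and 9203 in the *Epi/FB:dnAP-1* lists. With 1 threshold for all lists on the deposited scale, control-only sites on the arm numbered 291 (19.8%) and those of the *Epi/FB:dnAP-1* lists alone 4 (0.272%), with 6.13% and 1.95% on the other chromosomes. The deposited values rise in steps of 1.26, 1.38, 0.68 and 0.68 in the 4 lists, and dividing by the step removes the authors' scaling. With 1 threshold in steps, the arm held 42 control-only sites (3.57%) and 97 *Epi/FB:dnAP-1*-only sites (8.26%), which turned their order, with 0.520% and 20.1% on the other chromosomes. Peaks on the arm then numbered 795 and 496 in controls and 739 and 748 in *Epi/FB:dnAP-1* libraries, and the groups overlapped. With 1 threshold on the deposited scale they numbered 1263 and 960 in controls and 383 and 407 in *Epi/FB:dnAP-1* libraries. Under all 3 rules the arm had a larger control-only share than the other chromosomes, and a smaller share called by the *Epi/FB:dnAP-1* lists alone, both added rules having been chosen after the data had been seen. Which library was scaled more correctly was not tested.

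**Figure D3:**
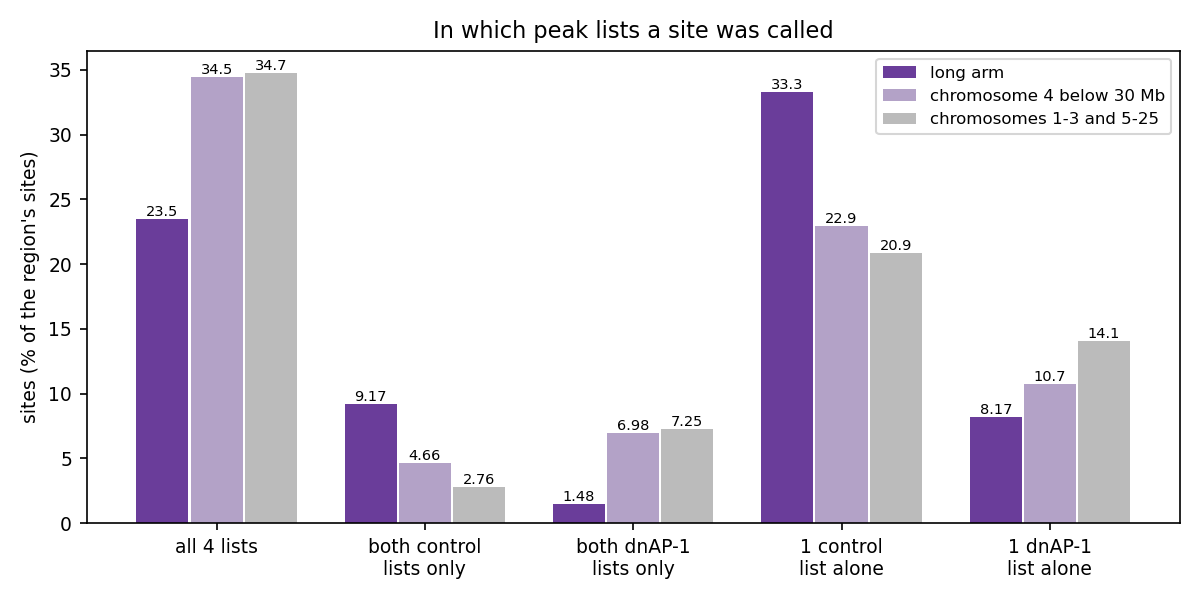
Percent of the sites of each region that were called in all 4 lists, in both lists of 1 group only, or in a single list, for the long arm, chromosome 4 below 30 Mb and the other chromosomes. On the long arm 9.17% of sites were control-only and 1.48% were called by the *Epi/FB:dnAP-1* lists alone, against 2.76% and 7.25% on the other chromosomes.

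The shares of sites called in 1 group alone are also given for low and higher sites. With each site taken at its highest centred maximum in any list, 998 sites of the arm lay at or under the arm's own median of -0.485 and 899 above it. Among the low ones the control-only share was 8.52% and the share of sites particular to the *Epi/FB:dnAP-1* lists 1.80%, against 3.58% and 6.29% of 17252 sites elsewhere at or under the same value. Among the higher ones the shares on the arm were 9.90% and 1.11%, against 2.205% and 7.89% for the other chromosomes. A site's highest maximum comes only from the lists that called it, so this division is partly set by presence itself and does not match the sites for height. It was added after the data had been seen, and the part of height in these shares was not tested.

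At the 445 sites called in all 4 lists the controls were the higher group after centring on each list's median. Both control libraries lay above both *Epi/FB:dnAP-1* libraries in centred maximum at 333 of them (74.8%), against 24.6% of all sites called in all 4 lists. The reverse held at 17 (3.82%), against 27.2% of all such sites. The median control minus *Epi/FB:dnAP-1* difference was 0.69 on the log2 scale, with the middle 50% of sites from 0.35 to 1.05, and it was -0.07 on the other chromosomes. For total signal the controls lay above at 198 sites (44.5%), against 12.3% of all, and below at 51 (11.5%), against 47.2%. The median difference in total signal was 0.40 on the arm and -0.30 on the other chromosomes. These orders are those of centred values. In steps the median height of all peaks on the arm was 12 and 10 in controls and 16 and 18 in *Epi/FB:dnAP-1* libraries. The shared sites were not compared in steps.

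The difference between the groups depended on the height of the site, on the arm and elsewhere. With sites ordered by their mean centred maximum over the 4 libraries, the 53 lowest sites of the arm (under -1) had a median control minus *Epi/FB:dnAP-1* difference of 1.04. It was 0.91 at 140 sites from -1 to -0.5, 0.66 at 112 sites from -0.5 to 0, 0.34 at 103 sites from 0 to 1, and -0.08 at 37 sites of 1 or more. On the other chromosomes the medians over the same ranges were 0.75, 0.50, 0.22, -0.08 and -0.22. After centring, low sites were thus the higher ones in controls on the arm and on the other chromosomes. The median on the arm was above that of the other chromosomes in each of the 5 ranges. How far the centring sets this dependence on height was not tested. The ranges were set after the data had been seen. Sites under 0 made up 68.5% of the arm's shared sites and 23.4% of those on the other chromosomes.

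**Figure D4:**
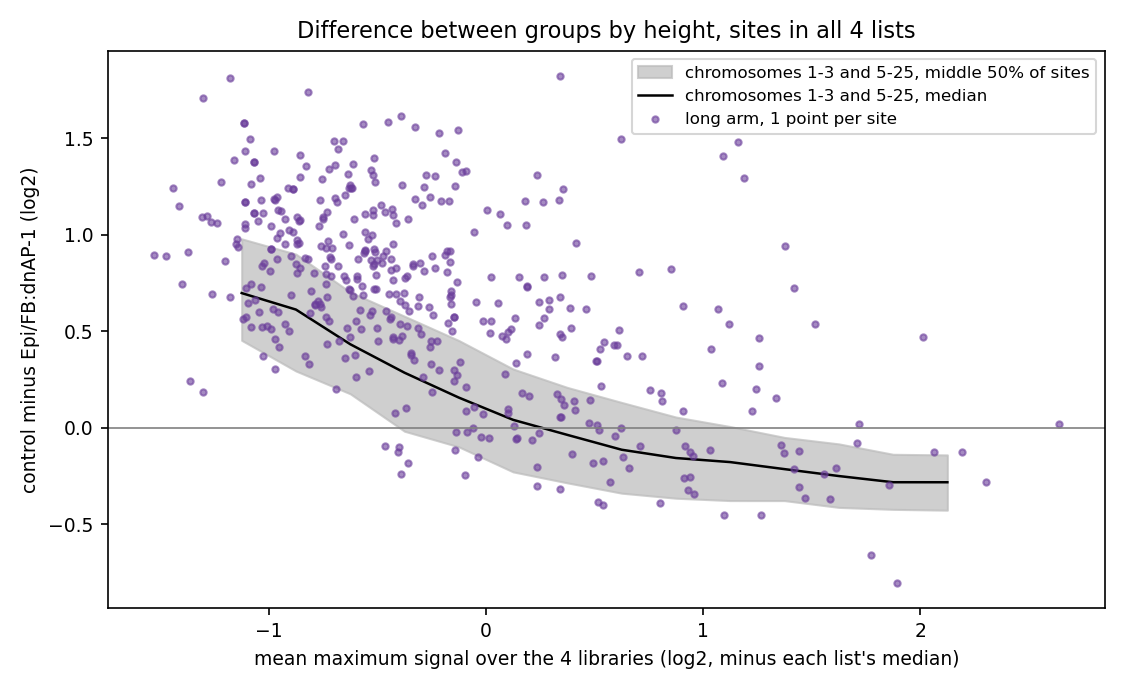
Control minus *Epi/FB:dnAP-1* difference in log2 maximum signal against the mean maximum over the 4 libraries, both after subtracting each list's median, for the 445 long arm sites called in all 4 lists (points). The line and band are the median and the middle 50% of sites on the other chromosomes, drawn for steps of the horizontal axis with at least 100 sites. The long arm has its points mostly at low heights and mostly above the line, though not at every height.

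The heights of the shared sites on the arm followed each other closely between libraries. Pearson's r of the log2 maxima over the 445 sites was 0.846 between the control libraries, 0.925 between the *Epi/FB:dnAP-1* libraries and 0.762 to 0.840 across the groups. On the other chromosomes the values were 0.873, 0.947 and 0.806 to 0.846. These correlations are across sites, which share a library and are not independent, and describe the libraries only.

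The 5 strongest sites of the arm were taken by total signal, which sums over width and so favours wide sites, and they were 8462 to 58147 bp wide. The site chr4:53465642-53523788, 58147 bp wide and also the widest, lay above 99.7% of its list in total signal in all 4 lists. Its maximum was 23.9 and 29.0 in controls and 15.6 and 10.9 in *Epi/FB:dnAP-1* libraries, which placed it between the 15.1 and 74.0 percentile of its list by height. Another site less than 100 kb away, chr4:53407618-53426922, had maxima of 23.9, 29.0, 11.6 and 9.52. The site chr4:55120368-55150006 was taller, with maxima of 55.4 and 40.0 in controls and 17.7 and 15.0 in *Epi/FB:dnAP-1* libraries. The site chr4:41887501-41895962, 8462 bp wide, had 55.4, 46.9, 22.4 and 21.8. The site chr4:49371025-49391920 had 17.6, 19.3, 12.2 and 11.6. At all 5 of these sites both controls lay above both *Epi/FB:dnAP-1* libraries in maximum signal, as deposited and after centring. After centring this held at 74.8% of the arm's shared sites and at 24.6% of all sites called in all 4 lists. Deposited maxima carry the authors' scaling, and the order of these 5 sites in steps is not given here.

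The other very wide sites were lower and more broken. The site chr4:63305158-63359787 (54630 bp) was made of 3, 1, 3 and 4 peaks in the 4 lists, with maxima of 16.4 and 16.6 in controls and 8.16 and 6.80 in *Epi/FB:dnAP-1* libraries. The site chr4:63373101-63416645 (43545 bp) had maxima of 12.6, 13.8, 8.16 and 5.44. Between these wide sites stood 1 of the tallest peaks of the arm, chr4:63364678-63367789, only 3112 bp wide, with maxima of 141 and 109 in controls and 175 and 127 in *Epi/FB:dnAP-1* libraries. As deposited, the groups overlapped there, unlike at the wide sites on either side. Deposited maxima carry the authors' scaling, and the order of these sites in steps is not given here.

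Tall sites of this kind were few. In all 4 lists 12 of the 445 shared sites (2.697%) were in the highest 10% by maximum, against 11.8% on the other chromosomes, and 7 of the 12 lay beyond 70 Mb. After centring, controls lay above at 1 of the 12, *Epi/FB:dnAP-1* libraries lay above at 4, and the groups overlapped at 7. The same counts for such sites elsewhere are not given here. Among shared sites of the other chromosomes with a mean centred maximum of 1 or more, controls lay above at 7.96% and *Epi/FB:dnAP-1* libraries at 45.5%. On the arm these shares were 29.7% and 21.6% of 37 sites. At this height too, controls thus lay above at a larger share of sites on the arm than elsewhere. The site chr4:76573613-76582979 had maxima of 65.5 and 46.9 in controls and 124 and 113 in *Epi/FB:dnAP-1* libraries. At chr4:74107910-74111287 the values were 98.3, 75.9, 111 and 120, and at chr4:65207091-65213905 they were 95.8, 81.4, 135 and 127. In each of these 3 sites, chosen after their values were seen, both *Epi/FB:dnAP-1* maxima were the higher pair as deposited. After centring this held at the first and the last of them, while at chr4:74107910-74111287 the groups overlapped, with 2.29 and 1.97 in controls and 2.26 and 2.25 in *Epi/FB:dnAP-1* libraries. The site chr4:46981295-46988155 had 101 and 86.9 in controls and 79.6 and 85.7 in *Epi/FB:dnAP-1* libraries.

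The sites called in 1 group alone that are named here lay between the 8.78 and 51.6 percentile of their list by height. Heights of the other sites of these classes are not summarised here. The control-only site with the highest lower percentile of total signal over both lists was chr4:62273397-62280441, with maxima of 21.4 and 11.04 and totals above 90.9% and 82.0% of the list. The next were chr4:36816846-36823965, with maxima of 18.9 and 13.8, and chr4:47360519-47370683, with 12.6 and 11.04. All 3 were 7045 bp wide or wider, and the median width of the 174 control-only sites was 4460 bp. The first of the *Epi/FB:dnAP-1*-only sites was chr4:44858094-44862824, with maxima of 12.9 and 14.3 and totals above 66.2% and 57.0% of the list. The others were chr4:30146797-30152783 (8.84 and 10.9) and chr4:52705400-52709419 (8.16 and 8.84). The 28 sites of this kind had a median width of 2669 bp and lay further along the arm, with 13 of them (46.4%) beyond 70 Mb against 20 of the 174 control-only sites (11.5%) and 17.1% of all sites of the arm.

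The far end of the arm also carries 2 genes whose nearby open chromatin regions the study listed. The region near *slco1d1*, a gene of the organic anion transporter family, lay 13.7 kb from the nearest H3K27ac site, chr4:77385067-77388920, which was called in control replicate 1 alone with a maximum of 10.1. The region near *gbp4*, a guanylate-binding protein gene of the interferon response in mammals, lay 33.1 kb from chr4:77551228-77562706. That site was called in all 4 lists, with maxima of 79.4 and 57.96 in controls and 57.8 and 43.5 in *Epi/FB:dnAP-1* libraries. The control values were the higher pair only as deposited, and narrowly. Deposited maxima carry the authors' scaling, and their order in steps is not given here. By percentile of total signal in its list the groups overlapped, at 99.1 and 97.0 in controls and 97.6 and 84.4 in *Epi/FB:dnAP-1* libraries. Neither region overlapped a site.

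Reads of a repeat-rich arm reach these lists through choices made before deposit. The methods give Bowtie2 with default settings, which puts a read with several equally good places at 1 of them, and name no filter on mapping quality. The part this has in the low, wide peaks and in the difference between the groups was not tested.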

How the data were processed

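H3K27ac CUT&Tag was analysed in 4 libraries of nonCMs at 7 dpa. Per the study's methods, the authors trimmed reads (cutadapt 2.7), aligned them to GRCz11 (Bowtie2 2.2.5), filtered unmapped reads (SAMtools, 1.9 in the submitters' processing notes), removed duplicates (Picard) and scaled the coverage with a factor from ChIPseqSpikeFree. For peak calling the methods name both MACS2 and SEACR. The lists have SEACR's 6 columns, 1 list per library, and were read as such. The deposited lists give each peak's total and maximum signal, which are scaled coverage and not counts, so depth is unknown and no counting interval is given.

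Peaks were merged into sites at 1 bp of overlap, and a list called a site if it had any peak in it. Signals were taken on the log2 scale and centred on the median of each deposited list. The long arm was compared with the rest inside each library by exact sign flips (4 libraries, smallest p = 0.13) and between groups by exact permutation (2 against 2, smallest p = 0.33). Sites were named as the 3 sites of the control lists alone and the 3 of the *Epi/FB:dnAP-1* lists alone with the highest lower percentile of total signal, the 5 strongest shared sites, the 3 widest, the 3 longest empty stretches and the sites nearest to the study's open chromatin regions on the arm. The sites and tests were chosen with earlier results of these data known. Alternatives changed the start of the arm, the peaks kept, the merging, the centring and the sequence compared with. Scripts were tested on simulated lists. Python 3.11.15, numpy 2.4.6, pandas 2.3.3, scipy 1.17.1 and matplotlib 3.10.9 were used. The GRCz11 sequence and annotation were not used here.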

Additional observations from a re-analysis of the deposited data

Results flagged for a closer look

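Peak density on the long arm went opposite ways in the 2 groups when set against the other chromosomes of the same library: it was higher in both control libraries and lower in both *Epi/FB:dnAP-1* libraries. The control mean of the log2 ratio exceeded the *Epi/FB:dnAP-1* mean by 0.71. With 2 libraries a group the exact permutation test gave p = 0.33, the smallest this test can give. The means were 0.35 ± 0.12 in controls and -0.36 ± 0.18 in *Epi/FB:dnAP-1* libraries (SD, n = 2 each).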

How the results depend on the processing

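The exact permutation test used here cannot reach 0.05 with 2 libraries a group, so under it the alternatives can show only whether a direction held. Of 170 recomputed values, 148 kept their direction and, for counts, stayed within 1.5 times the value reported. Another 19, all of them counts, moved beyond that range, and 3 changed direction. Some of the 148 were bound to stay the same, so this tally overstates stability. A lower limit on peak width changed no value and so tested nothing. Centring on the other chromosomes cannot change the arm's difference from them in total or maximum signal. The replicate block, given below, cannot change the group differences. Peak density against the rest, near 0 over the 4 libraries, turned to 0.0604 on the log2 scale when scaffolds were counted with the rest, and ran from -0.15 (without control replicate 2) to 0.15 (without *Epi/FB:dnAP-1* replicate 2) when 1 library was left out. Keeping the top 50% of each list left 886 sites, 11 of them *Epi/FB:dnAP-1*-only and 171 in all 4 lists. Asking a list's peaks to cover 50% of a site left 244 sites in all 4 lists. Leaving out 1 library gave 219 to 565 control-only and 70 to 149 *Epi/FB:dnAP-1*-only sites. The control-only count was 565 without control replicate 1, 447 without control replicate 2 and 315 without *Epi/FB:dnAP-1* replicate 1. A list left out removes 1 of the calls, or of the absences, that the class asks for. Shares over all sites were not recomputed for these alternatives, so these counts do not compare the arm with the rest. Among alternatives chosen after the data had been seen, 1 threshold on the deposited scale gave 291 control-only, 4 *Epi/FB:dnAP-1*-only and 239 shared sites. A threshold in steps gave 1175 sites, of which 42, 97 and 258 fell into these classes, so the order of the first 2 depends on the authors' scaling. Under it the peak counts of the groups on the arm overlapped. Up to 70 Mb the *Epi/FB:dnAP-1*-only sites numbered 15 (0.954%), against 7.64% of all sites in the series. With the replicate number as a block (replicate block, exact permutation within pairs, smallest p = 0.5) the group differences cannot change. The mean of the pair differences equals the difference of the group means. They were 437.5 peaks, 4.15 percentage points of covered share, 0.22 in total and 0.61 in maximum signal on the log2 scale. The labels tie no shared animal or day to the numbers, and over 17511 shared sites the replicate differences of the groups correlated at r = 0.0353. Read depth was not in the lists, so how far it limits the weakest peaks was not tested.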
